A study of Mus musculus with 3 samples.

Results

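Peaks of L1 RNA ChIRP, made in the mouse embryonic stem cell line E14, were examined in 13 stretches of the genome named for clusters of immune, detoxification and secretory gene families. In ChIRP, labelled DNA probes that pair with 1 RNA are used to pull it down from crosslinked cells with whatever is bound to it. The peaks were chosen by position alone: a peak of the deposited L1 list belonged to an interval if its midpoint lay inside fixed limits in build mm9. The intervals themselves were chosen with earlier results of these data known. This gave 492 peaks in 13 intervals with a summed length of 39 Mb, of 24666 peaks in all and 24202 on chromosomes 1 to 19, X and Y. The series has 3 libraries, an L1 RNA ChIRP, a Malat1 RNA ChIRP and an input DNA, all from E14 cells grown with serum and leukemia inhibitory factor, for which the labels name no treatment or genotype. Only the L1 peak list was analysed here. It gives no height or score, the read depth behind it is unknown, and as it comes from 1 library no replicate error can be given for any value.

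L1 (long interspersed element 1) is a retrotransposon family whose copies and transcripts are abundant in mouse, and genomic stretches with many tandemly duplicated, tissue-restricted genes are known to hold much L1 sequence. Gene families such as those examined here grew by local duplication, so that related genes lie side by side. Most serve differentiated tissues such as lymphocytes, liver, gut, skin or salivary gland. No annotation of mm9 was used, so the family names are those of the intervals, and no peak was assigned to a gene, an exon or an L1 copy. Where a position or value is given for a family, cluster or locus, it is that of its whole interval. The limits of an interval are round positions, not those of the genes. The labels name genomic DNA as the molecule while their protocol describes reverse transcription of recovered RNA, so what was sequenced, and hence whether a peak is a site of L1 RNA, is not settled.

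The intervals as a set were denser in L1 peaks than the remainder of their 8 chromosomes, but the families differed widely. The 39 Mb held 12.6 peaks per Mb, against 9.37 per Mb (9624 peaks) on the rest of these chromosomes, a ratio of 1.35 with a 95% interval from 1.23 to 1.48. At the density of the rest of each interval's own chromosome, 359 peaks would have lain in the 39 Mb, so the observed number was 1.37 times higher. Single families ranged from 3.67 peaks per Mb at Serpina to 26.5 at Tas2r and Prp. Of the 13 intervals, 10 lay above the rest of their chromosome and 3 below. The interval of the ratio lay above 1 for 5 (Igk, Igh, Ugt2, Cyp2c, and Tas2r with Prp), below 1 for Serpina, and across 1 for the other 7. These intervals are exact binomial (Clopper-Pearson) ones that cover counting error only, treat peaks as independent although neighbouring peaks cluster, and were not adjusted for the number of families. How many other stretches of such lengths would lie above or below 1 likewise was not counted. The counts of families above and below 1 thus have no background beside them.

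**Figure D1:**
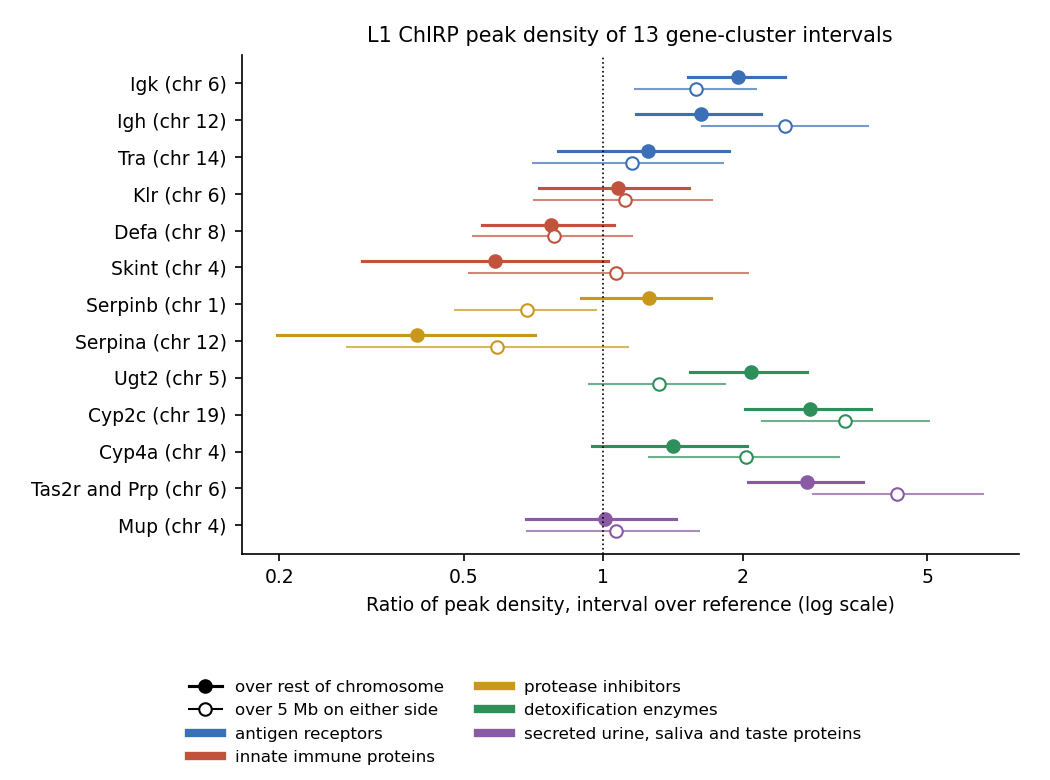
Ratio of L1 peak density (peaks per Mb, log scale) of each interval over the rest of its chromosome (filled points) and over the 5 Mb on either side (open points), with exact binomial 95% intervals as lines and colours for the family's role. The ratio over the rest of the chromosome runs from 0.40 at Serpina to 2.80 at Cyp2c, and Serpinb and Skint each lie on opposite sides of 1 under the 2 references.

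The same was seen in steps of 1 Mb. The 39 bins of the intervals held a median of 13 peaks (quartiles 5.5 and 17.5), against 8 over all 2587 bins (quartiles 3 and 14). Of the 39, 8 held at least 20 peaks (20.5%, 95% interval 9.30 to 36.5), where the background over all bins was 11.9%, which lies inside that interval. These 8 bins lay in 7 of the 13 intervals, with 2 of them at Igk and 1 each at Serpinb, Ugt2, Klr, Tas2r with Prp, Igh and Cyp2c. Bins without a peak numbered 3 of 39 (7.69%), where the background was 11%. Of these, 2 were neighbours at Defa and 1 opened the Cyp2c interval. Once peaks less than 5 kb apart were merged, 7.69% of the interval bins and 3.94% of all bins held at least 20.

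**Figure D2:**
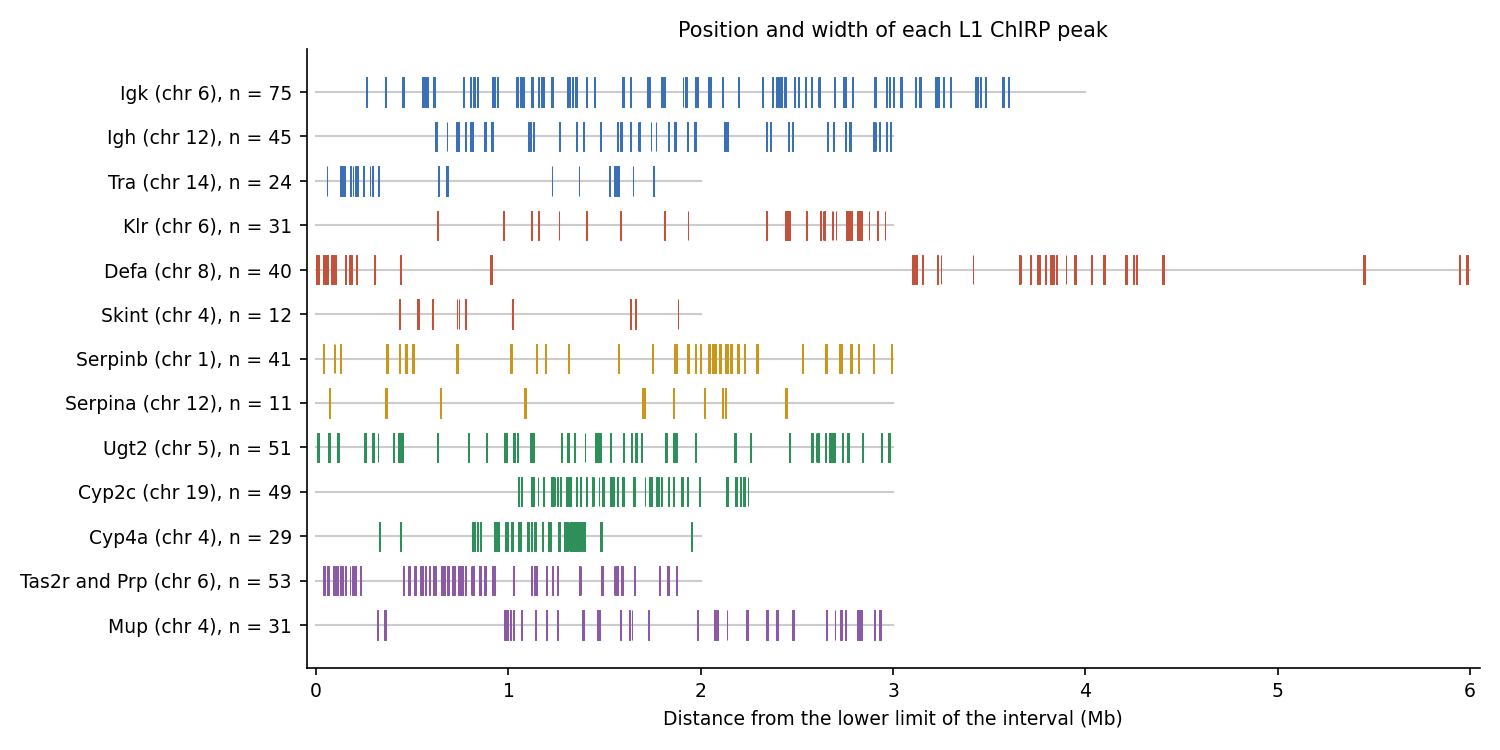
Each L1 peak (bars, drawn with a thin outline so that narrow peaks can be seen) along its interval, by distance in Mb from the lower limit, with 1 row per family and the number of peaks beside the name. The Cyp2c and Cyp4a peaks crowd into the middle of their intervals, and the Defa row has a stretch of 2184 kb without a peak.

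The antigen receptor loci, whose gene segments are joined by recombination in developing lymphocytes, were denser than the rest of their chromosomes at both immunoglobulin loci, while the T cell receptor alpha interval was not separated from its chromosome. The 3 loci together held 144 peaks in 9 Mb, or 16 per Mb and 1.69 times the density of the rest of their chromosomes (1.42 to 1.99). Against their surroundings the pooled ratio was 1.68 (1.37 to 2.07). Igk, the kappa light chain locus on chromosome 6 from 67000001 to 71000000, held 75 peaks, the most of any interval. Its 4 bins of 1 Mb held 14, 25, 23 and 13 peaks, so that peaks were spread along the interval and the longest stretch between neighbours was 148 kb. The density of 18.8 per Mb was 1.95 times that of the rest of chromosome 6 (95% interval 1.52 to 2.46) and 1.59 times that of the 5 Mb on either side (1.17 to 2.14). Peaks covered 12.6% of the interval, against 6.55% of the rest of the chromosome.

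Igh, the heavy chain locus near the end of chromosome 12 (114000001 to 117000000), held 45 peaks, with 9, 20 and 16 in its 3 bins. No peak lay in its first 500 kb. Its 15.0 peaks per Mb were 1.63 times the density of the rest of chromosome 12 (1.18 to 2.19) and 2.47 times that of its surroundings (1.63 to 3.73), which held 6.06 per Mb. Tra, the T cell receptor alpha locus on chromosome 14 (53000001 to 55000000), held 24 peaks, of which 14 lay in the first 500 kb. Its 12 per Mb gave a ratio of 1.25 to the rest of the chromosome (0.80 to 1.87). The middle 1 Mb held few peaks, and the ratio was 0.41 when the limits were drawn in by 0.5 Mb on each side. RefSeq (GRCm38.p6, used for names only) lists 169 genes and segments with Igk symbols on chromosome 6, 216 with Igh symbols on chromosome 12 and 191 with Tra symbols on chromosome 14. Igk and Igh did not differ beyond counting error (density ratio 1.25, 0.85 to 1.85), nor did Igk and Tra (1.56, 0.975 to 2.59).

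The 3 families of innate immunity had few peaks, or peaks on one side. The interval of Klr, the killer cell lectin-like receptors through which natural killer cells recognise other cells, is on chromosome 6 (128000001 to 131000000) and held 31 peaks. Its 3 bins held 2, 7 and 22 peaks, and 17 of the 31 lay in the last 500 kb. The mean density of 10.3 per Mb was 1.08 times that of the rest of the chromosome (0.73 to 1.53), but the peaks were narrow and covered only 4.88% of the interval, below the 6.55% of the rest. Defa, the defensin cluster on chromosome 8 (19000001 to 25000000), which encodes antimicrobial peptides of the gut epithelium, held 40 peaks in 6 Mb. Its bins held 13, 0, 0, 18, 6 and 3 peaks. Between 19913254 and 22097074 no peak was called, the longest peak-free stretch in any of the intervals, and 3 longer ones lay elsewhere on chromosome 8. Sequence missing from the assembly also gives no peak, and its part in this stretch was not tested. The Defa ratio was 0.77 over the whole chromosome (0.55 to 1.06), and 1.02 when 1 Mb bins without a peak were left out of the interval and of the rest, an alternative chosen after seeing the data.

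Skint genes encode membrane proteins of skin and thymus, of which Skint1 is known to act in the development of epidermal T cells. Their interval on chromosome 4 (111000001 to 113000000) held 12 peaks, with 7 and 5 in its 2 bins. Its density of 6 per Mb was 0.59 times that of the rest of the chromosome (0.30 to 1.03), and its surroundings held 5.63 per Mb (ratio 1.07, 0.51 to 2.05). Peaks covered 2.05% of the interval, the lowest share of the 13. Together the 3 innate families held 83 peaks in 11 Mb, or 7.55 per Mb, and 0.79 times the density of the rest of their chromosomes (0.63 to 0.98), but 0.96 times that of their surroundings (0.74 to 1.25). The 11 Mb include the Defa bins without a peak, and no pooled value without them was computed.

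The 2 serpin clusters, which encode inhibitors of proteases, lay at different levels. Together they held 52 peaks in 6 Mb, or 8.67 per Mb and 0.84 times the rest of their chromosomes (0.63 to 1.11). Against their surroundings the pooled ratio was 0.66 (0.48 to 0.90). Serpinb, on chromosome 1 from 107000001 to 110000000, holds the largely intracellular serpins, and Serpina, on chromosome 12 from 103000001 to 106000000, the mostly secreted ones such as alpha-1-antitrypsin of the liver. Serpinb held 41 peaks (9, 12 and 20 per bin) and Serpina 11 (3, 3 and 5), so that Serpinb was 3.73 times denser (1.88 to 8.04). Serpina was the sparsest of the 13 intervals, at 3.67 per Mb and 0.40 times the rest of its chromosome (0.20 to 0.71). Its surroundings held 6.20 per Mb (ratio 0.59, 0.28 to 1.13), with 30 of their 62 peaks in the 1 Mb just below the lower limit. With the limits drawn out by 0.5 Mb the Serpina ratio was 0.82. Serpinb lay in a peak-rich region: the 5 Mb on either side held 199 peaks in 10 Mb, so the cluster was sparser than its surroundings (ratio 0.69, 0.48 to 0.97) although its ratio to the rest of chromosome 1 was 1.25 (0.90 to 1.71).

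**Figure D3:**
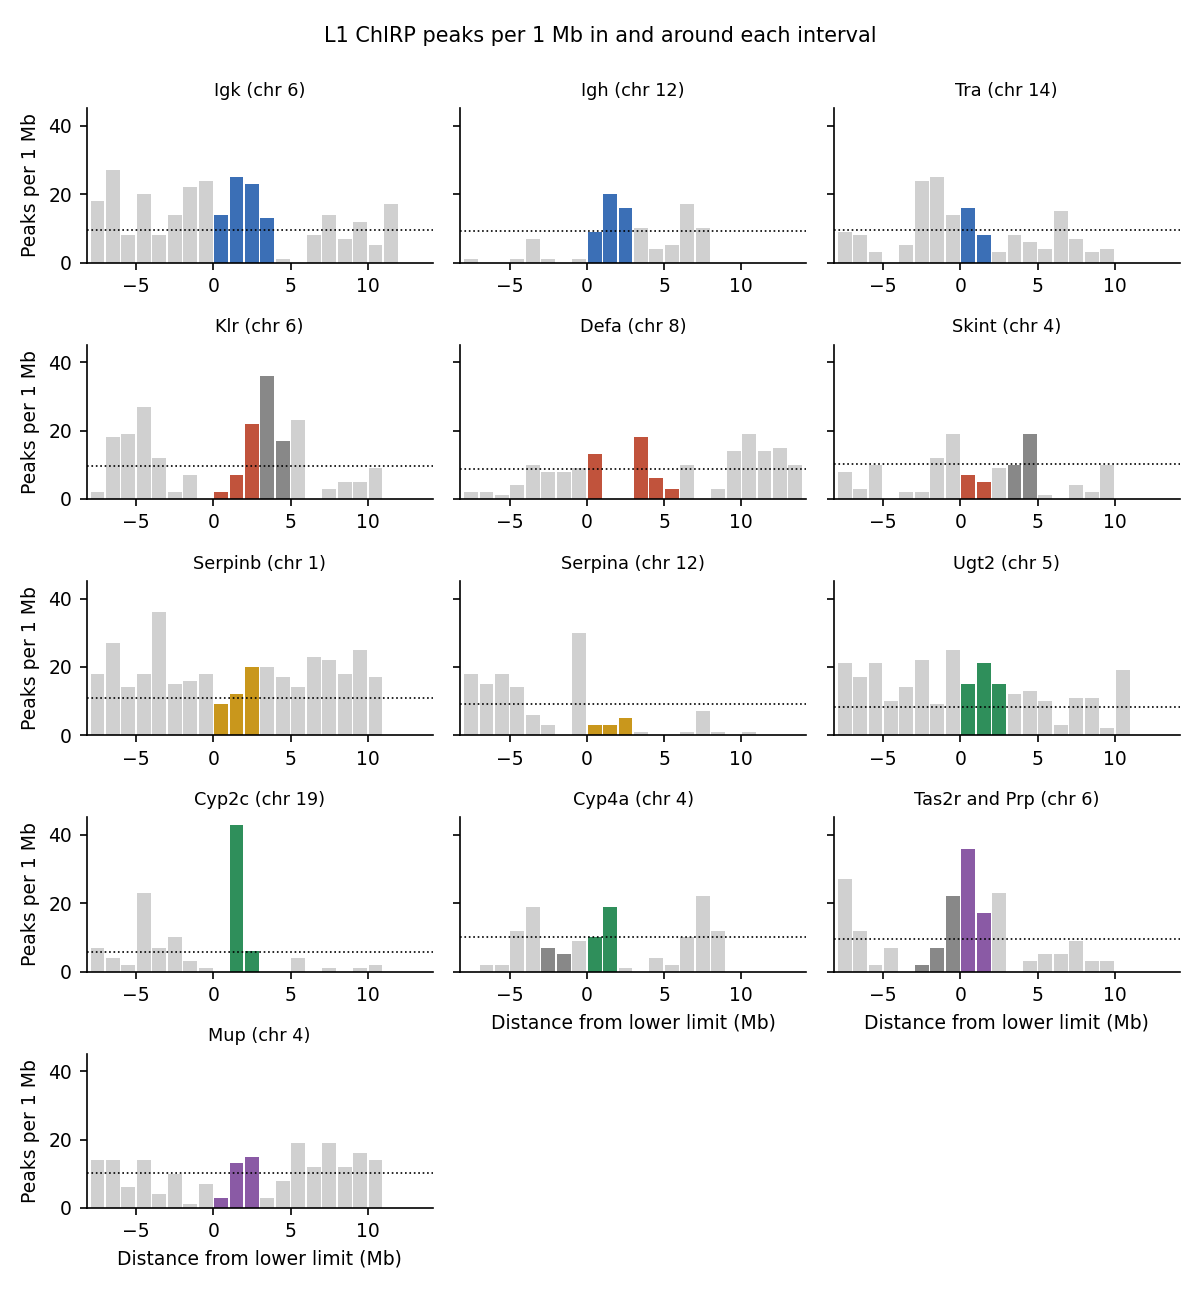
L1 peaks per 1 Mb in each interval (coloured bars), in other listed intervals nearby (dark grey) and in the 8 Mb on either side (light grey), by distance in Mb from the interval's lower limit, with the density of the rest of the chromosome as a dotted line. Cyp2c rises to 43 peaks in 1 bin, with 0 and 6 in the bins beside it, the bins within 5 Mb of Serpinb hold 14 to 36 peaks, and the Klr peaks run on into those of Tas2r and Prp.

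The 3 families of detoxification enzymes held 129 peaks in 8 Mb, or 16.1 per Mb and 1.86 times the density of the rest of their chromosomes (1.55 to 2.22). Against their surroundings the pooled ratio was 1.92 (1.54 to 2.39). Their pooled density was close to that of the antigen receptor loci and of the secreted and taste families. The interval of Cyp2c, the cytochrome P450 enzymes that oxidise many drugs and fatty acids, is on chromosome 19 from 38000001 to 41000000. It held 49 peaks on a chromosome whose rest had 5.84 per Mb. Its bins held 0, 43 and 6 peaks, and all 49 lay between 39050389 and 40247358. The ratio was 2.80 to the rest of the chromosome (2.03 to 3.79) and 3.33 to the surroundings (2.197 to 5.06). Of 57 overlapping windows of 3 Mb on chromosome 19, starting on whole Mb, 1 held more peaks than the interval. The ratio to the rest was 4.27 with the limits drawn in by 0.5 Mb on each side and 2.11 with them drawn out by as much. It was 2.14 by covered bases, 2.14 with empty 1 Mb bins left out of the rest, and 2.26 with peaks less than 5 kb apart merged.

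Cyp4a, the P450 enzymes that hydroxylate fatty acids at their far end, held 29 peaks on chromosome 4 from 114000001 to 116000000, of which 18 lay in the 500 kb from 115000001 to 115500000. Its 14.5 per Mb gave a ratio of 1.42 to the rest of the chromosome (0.94 to 2.04) and of 2.04 to its surroundings (1.25 to 3.24). The ratio to the rest of the chromosome was 2.46 with the limits drawn in by 0.5 Mb, 1.13 with them drawn out by as much, 1.14 with peaks less than 5 kb apart merged and 1.15 without empty 1 Mb bins. Peaks here were wide, so the interval stood further out by covered bases: 14.1% of it was covered, against 6.80% of the rest of the chromosome, a ratio of 2.08. Ugt2, the glucuronosyltransferases that conjugate steroids, bile acids and drugs, held 51 peaks on chromosome 5 from 86000001 to 89000000, with 15, 21 and 15 in its bins. Its 17.0 per Mb were 2.08 times the density of the rest of the chromosome (1.54 to 2.75) but, with 12.9 per Mb on either side, 1.32 times that of the surroundings (0.93 to 1.84), an interval that reaches below 1.

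The secreted and taste families together held 84 peaks in 5 Mb, or 16.8 per Mb. This was 1.69 times the rest of their chromosomes (1.34 to 2.10) and 2.04 times their surroundings (1.54 to 2.69). The densities of the 2 intervals lay far apart. The interval on chromosome 6 from 131000001 to 133000000, named for the bitter taste receptors (Tas2r) and the proline-rich proteins of saliva (Prp), held 53 peaks in 2 Mb, with 36 and 17 in its bins. It was the densest of the 13, at 26.5 per Mb, and peaks covered 18.7% of it. The ratio was 2.76 to the rest of the chromosome (2.05 to 3.63) and 4.31 to its surroundings (2.83 to 6.61). These surroundings leave out the adjoining Klr interval and so span only 7 Mb. Of 146 overlapping windows of 2 Mb on chromosome 6, 2 held more peaks, and such windows can share a bin with the interval. Igk, Ugt2 and Igh, whose ratios to the rest also lay above 1 beyond counting error, stood out less among windows of their own length. For Igk 14 of 144 windows held more peaks, and for Ugt2 15 of 148. On chromosome 12, 21 windows of 3 Mb held more than Igh and 93 more than Serpina. For intervals with a ratio across 1, the number ran from 37 of 122 at Tra to 95 of 150 at Skint. The lower limit of Tas2r with Prp is the upper limit of the Klr interval, and the peaks ran across it. The stretch from 130500001 to 132000000 held 53 peaks, or 35.3 per Mb, and 23.1% of it was covered. The interval of Mup, the major urinary proteins, which carry pheromones, is on chromosome 4 (59000001 to 62000000) and held 31 peaks, with 3, 13 and 15 in the bins. Its 10.3 per Mb did not stand apart from the rest of the chromosome (ratio 1.01, 0.68 to 1.44) or from the surroundings (1.07, 0.69 to 1.61).

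In order of density the families ran Tas2r with Prp (26.5 per Mb), Igk (18.8), Ugt2 (17.0), Cyp2c (16.3), Igh (15.0), Cyp4a (14.5), Serpinb (13.7), Tra (12), Klr and Mup (10.3 each), Defa (6.67), Skint (6) and Serpina (3.67). None of the 12 neighbouring pairs in this order differed beyond counting error, the closest to doing so being Tas2r with Prp over Igk (1.41, 0.975 to 2.04). Over all 78 pairs, 37 had a density ratio whose unadjusted 95% interval lay above 1, and the ends of the order differed 7.23-fold (3.73 to 15.3). How many pairs of other stretches of such lengths would differ likewise was not counted, so 37 has no background beside it. The 5 densest families held 273 of the 492 peaks (55.5%) in 15 of the 39 Mb. Of the 7 pairs of families on the same chromosome, 4 differed beyond counting error and 3 did not, and this count too has no background beside it. On chromosome 12 Igh was 4.09 times denser than Serpina (2.08 to 8.77), on chromosome 4 Cyp4a was 2.42 times denser than Skint (1.20 to 5.1997), and on chromosome 6 Igk was 1.81 times (1.18 to 2.85) and Tas2r with Prp 2.56 times (1.62 to 4.13) denser than Klr. The 3 pairs not separated were Cyp4a and Mup (1.403, 0.82 to 2.41), Mup and Skint (1.72, 0.86 to 3.68), and Tas2r with Prp and Igk.

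Median widths ranged widely between families, and pooling the families averages over this range. The range of medians over other stretches with like numbers of peaks was not counted. The 492 peaks had a median width of 5843 bp (95% order-statistic interval 5549 to 6347) and quartiles of 3856 and 7983 bp, against a median of 6338 bp on the rest of the 8 chromosomes. The difference in medians was -495 bp, and the upper bound for the intervals, 6347 bp, lies just above the median of the rest. The mean width was 6486 bp in both sets. Among families the median ran from 2700 bp at Skint (2156 to 5288) to 8121 bp at Cyp4a (5570 to 11914). Klr (3977 bp, 3155 to 5837), Cyp2c (4897 bp, 3878 to 6275), Igh (5266 bp, 3631 to 5939) and Tra (5322 bp, 3125 to 5963) were narrow, and their intervals, like that of Skint, lay below 6338 bp. Those of the other 8 families, Ugt2 (7110 bp) and Igk (6552 bp) among them, included it. The rest of chromosome 14 had a median of 5860 bp, which lies inside the Tra interval. The widest peak of each family ran from 7560 bp at Skint to 41011 bp at Cyp4a. At Serpina the widest, 17859 bp from 104693422 to 104711280, made up 22.2% of all covered bases of the interval.

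**Figure D4:**
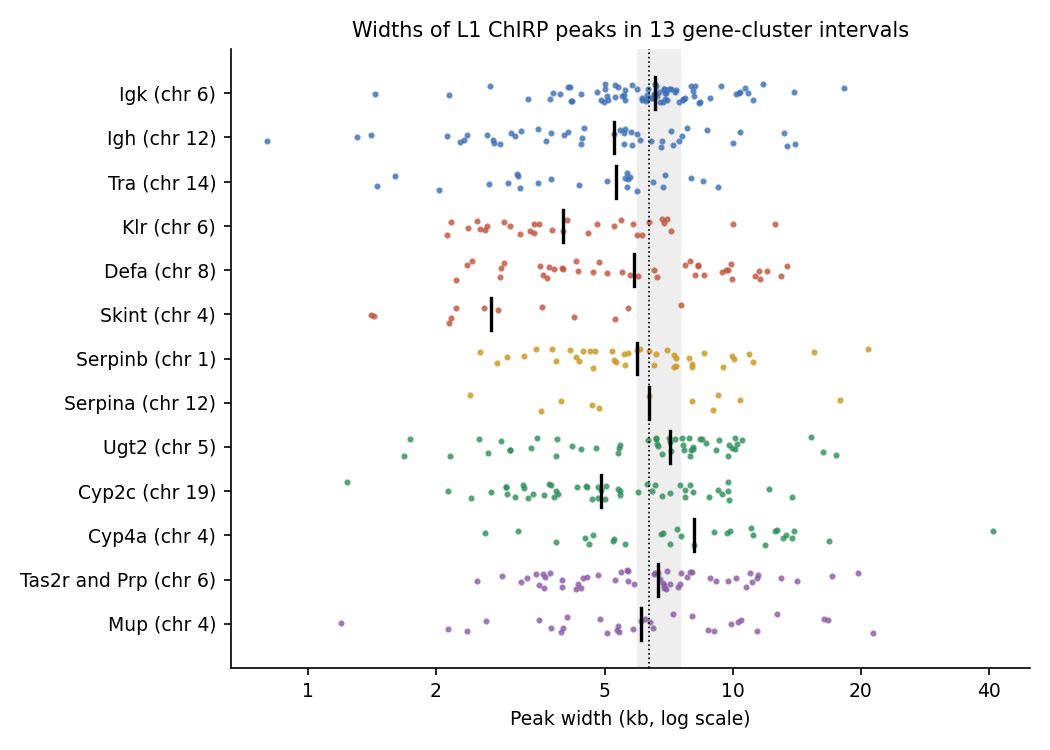
Width of each L1 peak in kb (log scale) by family, with the family median as a black bar, the median of the rest of the 8 chromosomes as a dotted line and the range from 6 to 7.5 kb shaded. The shaded range holds 27 of the 75 Igk peaks and no Skint peak, and 1 Cyp4a peak of 41 kb lies apart at the right.

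Mouse L1 elements are several kb long when complete, and peaks were also counted in a width class from 6 to 7.5 kb. In the intervals 90 of 492 peaks (18.3%, 14.97 to 21.998) lay in this class, where the background over all peaks was 23.7% and the rest of the 8 chromosomes had 23.8%. Igk went the other way, with 27 of 75 peaks (36%, 25.2 to 47.9) in the class. Without Igk, left out after its value was seen, the share was 63 of 417 (15.1%, 11.8 to 18.9). The difference from the rest of the chromosomes was -5.55 percentage points with all families. With each family left out in turn it ran from -8.74 points without Igk to -4.03 without Defa. Defa had 2 of 40 (5.00%, 0.61 to 16.9) and Cyp2c 5 of 49 (10.2%, 3.40 to 22.2). Peaks over 10 kb made up 65 of 492 (13.2%, 10.3 to 16.5), where the background was 11.6%. They were most frequent at Cyp4a, with 11 of 29 (37.9%, 20.7 to 57.7), and Tra and Skint had none of 24 and of 12. Peaks under 2 kb numbered 12 (2.44%, 1.27 to 4.22), against a background of 4.33%.

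Peaks of the intervals more often had a close neighbour. Another peak lay within 10 kb of 234 of 492 (47.6%, 43.1 to 52.1), where the background over all peaks was 40.1% and the rest of the 8 chromosomes had 40.4%. This share is higher where peaks are denser, whatever their arrangement, and no adjustment for density was made. The excess over the rest, 7.15 percentage points, was 2.82 once peaks less than 1 kb apart were merged. Against the 5 Mb on either side, where the share was 43.5%, it was 4.03 points, and 43.5% lies inside the interval of the 13 families' share. Cyp4a had the highest share, 22 of 29 (75.9%, 56.5 to 89.7), followed by Cyp2c with 31 of 49 (63.3%, 48.3 to 76.6) and Tas2r with Prp with 30 of 53 (56.6%, 42.3 to 70.2). Mup had the lowest, 6 of 31 (19.4%, 7.45 to 37.5), below the 46.8% of the rest of chromosome 4, although its density was that of the chromosome. Igk, the family with the most peaks, had 34 of 75 (45.3%, 33.8 to 57.3), close to the background.

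Chains of 4 or more peaks, each less than 10 kb from the next, were found in 5 of the 13 families. There were 6 such chains with 31 of the 492 peaks (6.30%, 4.32 to 8.82), where the background over all peaks was 7.07%, so chains were not more frequent than in the list as a whole. Of the 6, 2 were at Cyp2c and 1 each at Cyp4a, Klr, Tas2r with Prp, and Tra. The longest was at Cyp4a, where 8 peaks between 115286420 and 115400330 spanned 113.9 kb and covered 84.2% of it. It included the peak from 115332608 to 115373618, which at 41011 bp was the widest on any assembled chromosome. The longest Cyp2c chain had 7 peaks in 53.2 kb, from 39220264 to 39273489, of which 66.2% was covered. A Klr chain of 4 peaks took 25.1 kb, from 130440272 to 130465368. At Igk, Serpinb, Ugt2 and Igh, although each held over 40 peaks, no chain had more than 3.

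At a scale of 100 kb the intervals ranged from evenly filled to mostly empty. Of their 390 bins, 173 held no peak (44.4%, 39.4 to 49.4), where the background over all bins of this size was 51.9%. At Tas2r with Prp 2 of 20 bins were empty (10.0%), at Ugt2 4 of 30 (13.3%) and at Igk 9 of 40 (22.5%). At Defa 42 of 60 were empty (70.0%), at Serpina 21 of 30 (70.0%) and at Cyp2c 18 of 30 (60%). The fullest bins held 7 peaks, 1 each at Cyp4a (115300001 to 115400000, 83.1% covered), Cyp2c (39200001 to 39300000, 37.0%) and Tra (53100001 to 53200000, 27.3%). Cyp2c was thus dense and largely empty at once, with its peaks packed into part of the interval, whereas Ugt2 reached a like density with peaks throughout.

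The limits of the intervals are round positions, not edges of the gene clusters. The upper limit of Klr is also the lower limit of Tas2r with Prp. Within 250 kb of the other 24 limits, 60 peaks lay inside and 46 outside. The peaks nearest to these limits had a median width of 5946 bp on the inside and 6592 bp on the outside. At Defa the nearest peak inside the lower limit lay 3.73 kb from it and the nearest outside 452 kb, whereas at the lower limit of Ugt2 the distances were 10.3 and 7.79 kb, with no break in the run of peaks.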

How the data were processed

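The peak list of the L1 library, deposited by the authors, has 3 columns (chromosome, start, end) and no height, fold or score. Per the submitters' processing notes CASAVA, Bowtie2 2.2.2, MACS 1.4.2 and mm9 were used, with no role or setting named, and probes of 59 nt, sonication to 2 to 5 kb and 15 cycles of amplification were used per the labels' protocols. How reads from repeats were treated, whether the input entered the peak calls and what the threshold in the list's name stands for was left unstated by the sources used here, as was the depth. Near-identical copies can gain or lose peaks through that treatment, and a region without a peak may hold signal below detection. Neither other library was used.

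Peaks were assigned by midpoint. Density is peaks per Mb, and the rest of a chromosome runs from its first peak's start to its last peak's end without the 13 intervals. Surroundings are the 5 Mb on either side, without listed intervals. The interval of a ratio was carried over from the exact (Clopper-Pearson) 95% interval of the share of peaks, that of a ratio between families from the share of their summed peaks, and that of a median from order statistics. All cover counting error only. No test was run, since there is 1 library. Positions are printed from 1. Functions were tested on simulated data. Python 3.11.15, numpy 2.4.6, pandas 2.3.3, scipy 1.17.1 and matplotlib 3.10.9 were used.

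The intervals, families and measures were chosen with earlier results of these data known. Families were named as the intervals are, with all gene symbols of a prefix counted in RefSeq. Named peaks were the widest of each interval and the longest chain and peak-free stretch, and named 100 kb bins the densest of each interval. Other named peaks and stretches were chosen after their values were seen. Alternatives were covered bases, other rules for membership, shifted limits, other references, merged peaks, other distances and thresholds, and each interval left out in turn. No sequence of mm9 was used, so none is printed.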

Additional observations from a re-analysis of the deposited data

Results flagged for a closer look

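Unplaced sequence, which belongs to no interval, held 9 peaks for chromosome 1, 5 for chromosome 8 and 2 for chromosome 5, of 464 unplaced peaks in all. Whether these are more than the length of that sequence would give was not tested. No control library was analysed here.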

How the results depend on the processing

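The pooled ratio of 1.35 stayed above 1 in every alternative run. It was 1.23 with limits drawn out by 0.5 Mb and 1.18 with empty 1 Mb bins left out of the rest alone, and 1.28 with such bins left out of intervals and rest (chosen after seeing the data, as was the own-chromosome value of 1.37). Leaving out each interval in turn gave 1.27 to 1.45. The median width difference became 124 bp once peaks less than 5 kb apart were merged, and ran from -684 to -339 bp over the intervals left out. The share of interval bins with many peaks was 41.03% for 15 or more (24.9% of all bins), 7.69% for 25 or more (4.37%), and 7.69% for 20 or more after merging (3.94%), and 17.1% to 24.2% over the intervals left out. The neighbour excess of 7.15 points was 8.595 within 5 kb, 5.13 within 50 kb, 2.82 after merging peaks less than 1 kb apart and 4.03 against the 5 Mb on either side, and ran from 5.24 to 9.05 over the intervals left out. Of 104 alternatives for single families, 91 kept their side of 1, but not all of the 104 were distinct. Membership by any overlap gave the main value for every family, so it could not change side. Leaving empty 1 Mb bins out of intervals and rest repeated the value with them left out of the rest alone, except at Defa and Cyp2c. The 13 alternatives that changed side were at Serpinb, Mup, Skint, Klr, Defa and Tra, none of which was separated from 1 by counting error at the outset. No paired analysis was possible because only 1 library was analysed. Read depth is unknown, so the number of weaker sites below detection is too.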
